A study of Homo sapiens with 6 samples.

Results

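Telomere protection was followed through 10 genes in U2OS, an established human osteosarcoma cell line: the 6 genes of the shelterin complex (TERF1, TERF2, TERF2IP, TINF2, ACD and POT1), the CST genes CTC1 and STN1, and the chromatin genes ATRX and DAXX. They were taken by gene symbol from 60708 gene rows, all 10 were found, and all 10 had enough reads to be among the 20409 genes tested. Control cells were wild-type U2OS kept in the solvent DMSO. Treated cells, called PARGi here, were the same line kept in 25 µM PDD00017273, an inhibitor of poly(ADP-ribose) glycohydrolase (PARG), and both treatments lasted 4 days. Each group had 3 libraries of total RNA, described by the submitters as biological triplicates. The series asks how PARG affects TARG1 protein, and the counts show in passing what the telomere genes did.

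Telomeres are repeats at chromosome ends that the cell must hide from its own DNA repair. Shelterin does this by binding the repeats directly, CST binds the single strand and helps fill in the complementary one, and ATRX with DAXX deposits the histone variant H3.3 at telomeres. Most cancers lengthen telomeres with telomerase. U2OS is a standard example of the other route, alternative lengthening of telomeres (ALT), which copies telomere sequence by recombination, and the line is known for lacking ATRX protein. Poly(ADP-ribose) is tied to this biology through the tankyrases, which modify TRF1, the product of TERF1, and release it from telomeres.

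The libraries held 60286931 to 80605145 counts. Levels are given as CPM, the counts of a gene scaled to a common library size after TMM correction for composition, with the SD over 3 libraries. Of the 8 mesenchymal and osteoblast marker genes, 7 had a mean above 1 CPM, COL1A1 (4370 ± 268 CPM in DMSO) and VIM (2480 ± 57.7 CPM) being the most abundant, whereas TWIST1 was near 0 in both groups. Of the 7 tested, 2 fell, namely the osteoblast transcription factor gene RUNX2 (-17.2%, edgeR adjusted p = 4.96e-08) and SPARC (-5.62%, adjusted p = 0.00653), and ALPL, for alkaline phosphatase, rose (17.7%, adjusted p = 0.0364). The called share was 42.9%, beside 24.3% of all tested genes. Of 8 markers of other cell types, KRT18, a keratin, had 224 ± 4.45 CPM in DMSO and 272 ± 2.39 in PARGi, a rise (edgeR adjusted p = 9.68e-09). CDH1, for the epithelial adhesion protein E-cadherin, rose at a low level, from 0.718 ± 0.0247 to 1.14 ± 0.208 CPM (edgeR adjusted p = 0.0104). Only 5 of these 8 markers were tested, and 40% of the 5 were called, again beside 24.3%. EPCAM, another epithelial gene, named after its values were seen, stood at 3.53 ± 0.236 and 3.02 ± 0.0457 CPM (adjusted p = 0.0912). Without KRT18 the other 7 summed to 5.53 to 6.19 CPM in DMSO and 5.37 to 5.94 CPM in PARGi, with NEUROD1 at 0 counts in every library. The sum over the whole list of 8 ran from 225 to 234 CPM in DMSO and from 275 to 280 CPM in PARGi. The part of these markers in the results was not tested.

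The core of telomerase had almost no counts. TERT, its reverse transcriptase, had 1, 0 and 1 counts in the DMSO libraries and 1, 0 and 2 in the PARGi libraries, or 5 counts in all, which is too few for a test. TERC, its RNA template, was listed at 0 in all 6 libraries. That 0 is limited by the annotation, since 81% of the exon bases of TERC are also annotated as a second gene, RF00024, on the same strand. RF00024 was listed at 0 as well, and how reads shared by both rows were treated is not given in the sources used here. The assembly factors that telomerase shares with other RNA-protein complexes were present, among them DKC1, the pseudouridine synthase dyskerin, with 198 ± 2.22 CPM in DMSO and 196 ± 1.63 in PARGi.

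In solvent alone, the 10 genes covered an 11.1-fold range once counts were divided by exon length. DAXX, the H3.3 chaperone, was highest at 25 ± 0.611 CPM per kilobase of exon (SD, n = 3 DMSO libraries), and only 9.31% of the tested genes were higher. TERF2IP, which encodes RAP1, the partner of TRF2, followed at 21.9 ± 0.21. Then came TINF2 (16.7 ± 0.263), which encodes the central linker TIN2, and ATRX (15.4 ± 0.483). STN1 (10.2 ± 0.558), ACD (8.33 ± 0.244), TERF2 (7.11 ± 0.199) and TERF1 (5 ± 0.146) formed the middle of the order. POT1, whose product binds single-stranded telomere repeats, and CTC1, the large CST subunit, closed it at 2.27 ± 0.0288 and 2.25 ± 0.138. Every step in this order was wider than the spread of the DMSO libraries except the last, where POT1 and CTC1 overlapped.

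**Figure D1:**
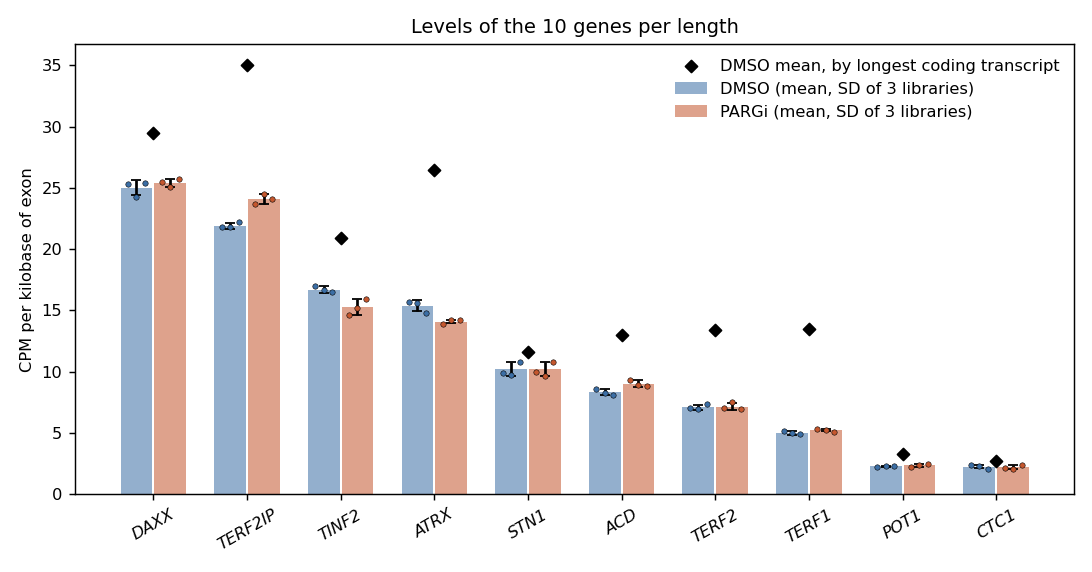
Levels of the 10 genes in CPM per kilobase, with bars for the mean and SD of 3 DMSO and 3 PARGi libraries, points for single libraries, and diamonds for the DMSO mean when the length is that of the longest coding transcript. DAXX and TERF2IP lead and POT1 and CTC1 are lowest, while the diamonds show that TERF1 and TERF2 gain most, in proportion, from the shorter length.

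The order depended on the length used, at both ends and in the middle. The annotated exons of TERF1 add up to 8831 bases and its longest coding transcript to 3268 bases, and with the transcript length its level was 13.5 ± 0.395 rather than 5 ± 0.146 CPM per kilobase. TERF2 then stood at 13.4 ± 0.375, next to TERF1 and within its spread. TERF2IP passed DAXX, at 35 ± 0.335 against 29.5 ± 0.721. POT1 and CTC1 were the 2 lowest by these 2 lengths, at 3.28 ± 0.0417 and 2.73 ± 0.168 by the longest coding transcript. By the median length of the coding transcripts the order was another: ATRX came first at 123 ± 3.85 CPM per kilobase, DAXX took the sixth place at 32 ± 0.782, CTC1 took the fifth place at 33.9 ± 2.08, and ACD (16.5 ± 0.484) and STN1 (12 ± 0.661) were lowest. These levels are of whole genes, so reads of a truncated or altered ATRX transcript join those of a full one. With the exon length or the longest transcript, a transcript that lacks exons would be divided by too great a length and its level understated.

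Against that baseline, inhibitor treatment came with small shifts in 4 of the 10 genes. TERF2IP and ACD rose, TINF2 and ATRX fell, and none of the 4 moved by more than 10%. The test was edgeR's quasi-likelihood test with Benjamini-Hochberg adjustment over all 20409 genes. The 4 calls are 40% of the set, beside 24.3% of all tested genes (13.2% higher and 11% lower). In a set of 10 a single gene shifts that share by 10 percentage points. The shares were also not matched for expression level. By mean CPM even POT1, the lowest of the 10, had only 45.8% of the tested genes above it. The 4 genes were also the ones whose DMSO and PARGi libraries did not overlap, which was true of 38% of all tested genes. The median log2 fold change of the 10 genes was 0.017, beside -0.007 over all tested genes. In these bulk libraries, a change in the share of cells that express a gene and a change in RNA per cell cannot be told apart.

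**Figure D2:**
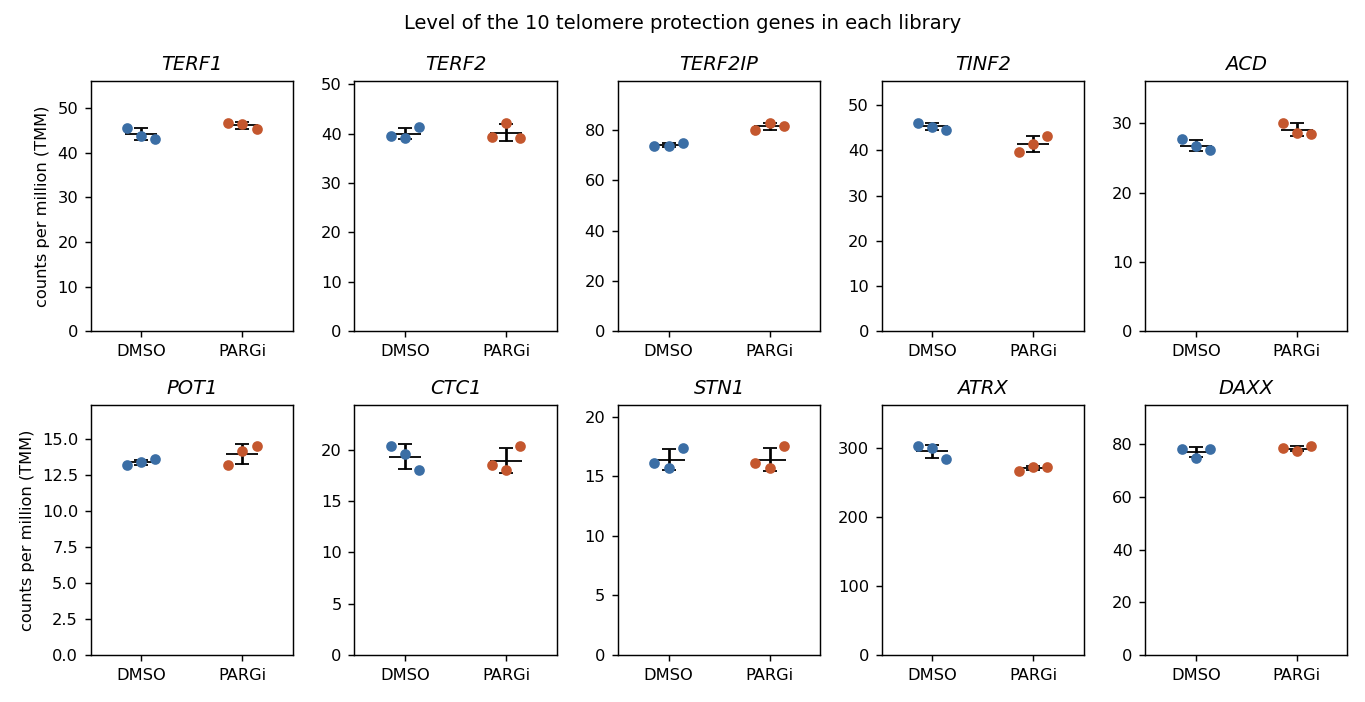
CPM of each gene in each library (points), with the mean and SD of the group; every vertical axis starts at 0. The groups separate for TERF2IP, TINF2, ACD and ATRX, and overlap for the other 6 genes.

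TERF2IP gave the smallest p of the set. Its gene (ENSG00000166848) lies on the plus strand of chromosome 16, from 75647786 to 75761872 in GENCODE 29 on GRCh38. The level was 73.7, 73.8 and 75 CPM in DMSO replicates 1 to 3 and 80.2, 82.9 and 81.5 CPM in PARGi replicates 1 to 3. All PARGi libraries were thus above all DMSO libraries. The fitted log2 fold change was 0.14 (SE 0.027), or a rise of 9.97% with 95% confidence bounds of 5.79% and 14.3% (edgeR adjusted p = 0.000521). In size it was ordinary, since 41.9% of the tested genes moved further from 0.

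ACD encodes TPP1, the shelterin subunit that carries POT1 and, where telomerase is active, recruits it. The gene spans positions 67657512 to 67660815 of chromosome 16 on the minus strand, and its exons share 58 bases with CARMIL2 on the opposite strand. Its level was 27.7, 26.7 and 26.2 CPM in DMSO and 30.1, 28.6 and 28.5 CPM in PARGi, and the lowest PARGi library exceeded the highest DMSO library by a narrow margin. The log2 fold change was 0.11 (SE 0.039), or a rise of 8.22% (95% confidence interval 2.37% to 14.4%, edgeR adjusted p = 0.0339). This was the least secure of the 4 calls. Over 15 alternative edgeR, DESeq2 and limma-voom analyses its adjusted p ran from 0.0317 to 0.158, and the call was lost in 7, namely DESeq2 (0.0612), upper-quartile scaling (0.104) and the removal of DMSO replicate 2 (0.0649), DMSO replicate 3 (0.112) or PARGi replicate 1 (0.158), 2 (0.0598) or 3 (0.0536).

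TINF2 moved the other way. TIN2 holds TRF1, TRF2 and TPP1 together, and its gene spans positions 24239643 to 24242674 of chromosome 14, on the minus strand. The level was 46.1, 45.2 and 44.6 CPM in DMSO and 39.7, 41.3 and 43.2 CPM in PARGi, with every PARGi library below every DMSO library. The log2 fold change was -0.13 (SE 0.035), a change of -8.48% (95% confidence interval -12.9% to -3.82%, edgeR adjusted p = 0.00832). PARGi replicate 1 was the lowest library, and without it the log2 fold change was -0.10 and the call was lost (adjusted p = 0.0658). Without that library the count of called genes among the 10 was 2, TERF2IP and ATRX.

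The remaining shelterin genes did not pass the threshold. TERF1, for the repeat-binding protein TRF1, stood at 45.6, 43.8 and 43.1 CPM in DMSO and 46.7, 46.4 and 45.2 CPM in PARGi, with overlapping groups (log2 fold change 0.061, SE 0.033, edgeR adjusted p = 0.192). TERF2, for TRF2, which folds the chromosome end into a protective loop, stood at 39.5, 39.2 and 41.3 CPM in DMSO and 39.4, 42.2 and 39.1 CPM in PARGi. Its interval leaves room for changes from -4.48% to 5.95% (edgeR adjusted p = 0.9). POT1 stood at 13.2, 13.4 and 13.6 CPM in DMSO and 13.2, 14.2 and 14.5 CPM in PARGi, with an interval from -2.78% to 12.4% (adjusted p = 0.404). POT1-AS1, a weakly expressed antisense RNA gene that shares 111 exon bases with POT1 on the opposite strand, fell from 0.581 ± 0.0162 to 0.328 ± 0.0705 CPM (edgeR adjusted p = 0.0181, log2 fold change -0.84, SE 0.26). It was named after its values were seen, because of that overlap.

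**Figure D3:**
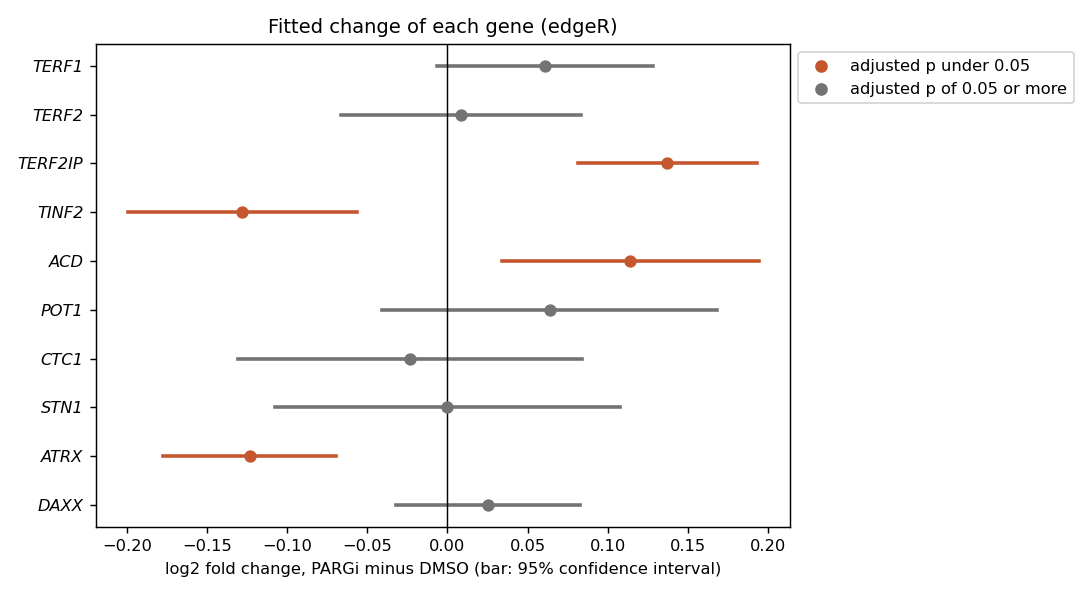
Fitted log2 fold change of each gene, PARGi minus DMSO, with its 95% confidence interval. The intervals of TERF2IP and ACD lie above 0, those of TINF2 and ATRX below 0, and the other 6 cross 0.

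Since shelterin works as an assembly, its makeup at the RNA level was described as well, in measures that do not depend on the scaling of a library. These measures use the same counts as the calls, so they restate the calls and are no separate support for them. Among the 6 genes, the share of TERF2IP in the summed level per kilobase was 35.8% ± 0.464 in DMSO and 38.2% ± 0.225 in PARGi, and that of TINF2 was 27.2% ± 0.318 and 24.2% ± 0.848 (3 libraries a group). In a two-sided exact permutation test both differences had p = 0.1, the floor for 3 against 3 libraries. The ratio of TINF2 counts to TERF2IP counts was 0.625, 0.613 and 0.596 in DMSO and 0.495, 0.498 and 0.53 in PARGi, without overlap. That separation was fixed in advance, as TINF2 was lower and TERF2IP higher in every PARGi library. The same holds for TINF2 over ACD. TINF2 over ACD was 1.69 ± 0.0228 in DMSO and 1.43 ± 0.1 in PARGi. By contrast, TERF1 over TERF2 was 1.11 ± 0.0558 and 1.15 ± 0.0422, with overlapping groups (exact permutation test, p = 0.4). In all, 9 such ratios were compared, and those that separated the groups had an adjusted p of 0.15; the smallest unadjusted p that 3 against 3 libraries can give is 0.1.

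The total moved little. The 6 shelterin genes summed to 246, 242 and 244 CPM in DMSO and 249, 255 and 252 CPM in PARGi, a log2 difference of 0.049 (exact two-sided permutation test, p = 0.1, the smallest possible). With upper-quartile scaling the difference was 0.024 (exact permutation test, p = 0.2).

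**Figure D4:**
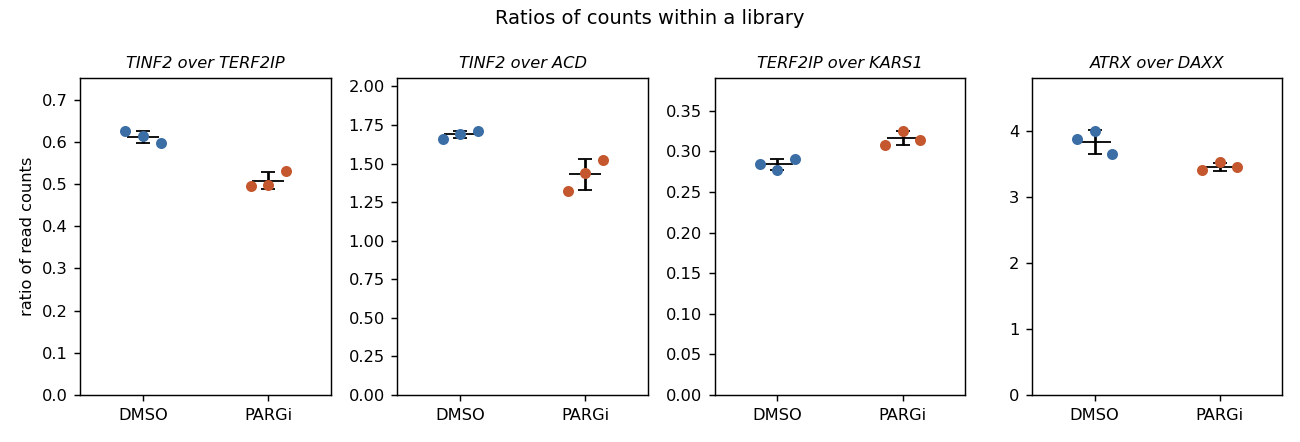
Ratios of raw read counts between gene pairs in each library (points), with the mean and SD of 3 libraries; axes start at 0. In all 4 ratios shown the DMSO and PARGi libraries do not overlap. Each ratio holds a gene already called, so this restates the calls.

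ATRX, a chromatin remodeller whose loss marks many ALT tumours, was the most abundant of the 10 genes in reads. The gene occupies positions 77504878 to 77786233 of the X chromosome, on the minus strand, with 19266 exon bases. Its level was 303, 300 and 285 CPM in DMSO and 268, 273 and 273 CPM in PARGi. The groups did not overlap, although DMSO replicate 3 was nearer to the treated libraries than the other 2 controls were. The log2 fold change was -0.12 (SE 0.026), a change of -8.2% (95% confidence interval -11.6% to -4.71%, edgeR adjusted p = 0.00102). DAXX, its partner, did not follow: it stood at 78.1, 74.9 and 78.2 CPM in DMSO and 78.7, 77.4 and 79.2 CPM in PARGi (fitted log2 difference 0.025, SE 0.028, edgeR adjusted p = 0.569). The ratio of ATRX to DAXX counts was 3.84 ± 0.18 in DMSO and 3.46 ± 0.0617 in PARGi, without overlap (exact permutation test, p = 0.1, the smallest possible). Of the exon bases of DAXX, 14.3% are shared with AL662820.1 on the same strand, a row at 0 in every library, so some DAXX reads may be missing.

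The CST genes showed no detectable difference. CTC1 stood at 20.3, 19.6 and 18 CPM in DMSO and 18.5, 18 and 20.3 CPM in PARGi, with an interval from -8.66% to 6.01% (edgeR adjusted p = 0.8). STN1 stood at 16.1, 15.7 and 17.4 CPM in DMSO and 16.1, 15.7 and 17.5 CPM in PARGi, so that the groups all but coincided (interval -7.19% to 7.74%, edgeR adjusted p = 1). TEN1, the third CST subunit, had between 0 and 9 counts in a library and was not tested. As 75.4% of its exon bases also belong to the readthrough gene TEN1-CDK3 on the same strand, its own row may hold few of its reads. TEN1-CDK3 had 1.1 ± 0.301 CPM in DMSO and 0.969 ± 0.0186 in PARGi (adjusted p = 0.555).

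Promoter sequence was at hand for 5 of the 10 genes, from RefSeq on GRCh38.p14. The stretches before the start site are shown for the shelterin gene that rose with the smallest p, the one that fell, and STN1, which did neither. All read 5′ to 3′ on the strand of the gene. Capitals mark the GC box GGGCGG, the CCAAT box CCAAT and the ETS core CCGGAAG on either strand. The stretches leave out every base that GENCODE 29 places in an exon. TERF2IP is given at chr16:75647680-75647772 on the plus strand, TINF2 at chr14:24242675-24242924 on the minus strand, and STN1 at chr10:103918206-103918434 on the minus strand.

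TERF2IP: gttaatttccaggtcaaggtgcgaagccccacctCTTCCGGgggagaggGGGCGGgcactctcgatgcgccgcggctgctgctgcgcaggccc

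TINF2: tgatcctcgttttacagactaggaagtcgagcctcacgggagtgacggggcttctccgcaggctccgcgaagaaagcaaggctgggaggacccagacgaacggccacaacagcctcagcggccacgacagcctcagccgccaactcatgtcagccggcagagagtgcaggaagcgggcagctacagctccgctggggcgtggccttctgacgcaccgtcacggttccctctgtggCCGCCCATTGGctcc

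STN1: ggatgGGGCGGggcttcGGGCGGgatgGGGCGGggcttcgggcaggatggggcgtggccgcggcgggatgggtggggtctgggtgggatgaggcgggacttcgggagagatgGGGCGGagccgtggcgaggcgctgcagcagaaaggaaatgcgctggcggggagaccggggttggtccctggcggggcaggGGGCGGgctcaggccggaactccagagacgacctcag

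The TERF2IP stretch holds 93 of the 107 bases between 2 RefSeq start sites that face away from each other, that of TERF2IP and that of KARS1, which encodes a lysyl-tRNA synthetase. KARS1 had 261 ± 4.6 CPM in DMSO and 258 ± 2.97 in PARGi (fitted log2 difference -0.014, SE 0.025, edgeR adjusted p = 0.736), while TERF2IP rose. The ratio of TERF2IP to KARS1 counts was 0.285, 0.277 and 0.291 in DMSO and 0.308, 0.325 and 0.314 in PARGi, without overlap (exact permutation test, p = 0.1, the smallest possible). The stretch holds 1 GC box and 1 ETS core. TINF2 has a GC box that runs into a CCAAT box in the printed letters. RefSeq gives 2 start sites for TINF2; the window before the other, at position 24242623 and inside the gene, holds 2 GC boxes, 1 CCAAT box and 1 ETS core. The printed stretch of STN1 has 5 GC boxes within a run of GC-rich repeats. Among 35116 promoter windows of 250 bases before the start, 42.6% hold a GC box, 32% a CCAAT box and 8.52% an ETS core, so none of these is rare. The telomere repeat TTAGGG, held by 7.94% of windows, was in none of the windows of these 5 genes.

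Genes whose pattern over the 6 libraries was most like that of TERF2IP were sought among 10129 genes averaging 10 CPM or more. The closest were MDGA1 (Pearson r 0.999 of log2 CPM), PMAIP1 (0.9985), the p53 target also called NOXA, and THOC3 (0.9981), a subunit of an mRNA export complex. These r values describe 6 libraries that share the treatment contrast, and 732 of the 10129 genes had an r above 0.95. All 3 genes rose more than TERF2IP did, with log2 fold changes of 0.37, 0.19 and 0.27.

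The wider telomere machinery was described from 4 lists of related genes. Of 11 telomerase-related genes, 9 were tested and 1 rose: SHQ1, an assembly factor for dyskerin, from 34.2 ± 0.289 to 37.1 ± 0.323 CPM (edgeR log2 fold change 0.12, adjusted p = 0.0125). The list median was 0.0097, and the called share of 11.1% was below the 24.3% of all tested genes. Of 18 telomere accessory genes, all tested, 3 rose and 2 fell, or 27.8%, near the 24.3% of all tested genes, at a median of 0.011. EXO1, a nuclease that resects chromosome ends, rose from 50 ± 1.13 to 59 ± 1.72 CPM (0.24, edgeR adjusted p = 4.64e-06), and FEN1, the flap endonuclease, from 199 ± 2.75 to 218 ± 1.9 CPM (0.13, adjusted p = 0.000215). The helicase gene PIF1 fell from 74 ± 4.3 to 68.1 ± 1.43 CPM, and HMBOX1, which encodes a telomere repeat-binding protein, from 26.4 ± 1.09 to 24 ± 0.423 CPM. The tankyrase genes, named after their values were seen, did not pass: TNKS stood at 60.6 ± 0.808 and 59.6 ± 2.33 CPM (adjusted p = 0.666), and TNKS2 at 108 ± 2.73 and 109 ± 2.42 CPM (adjusted p = 0.842). The rows of RTEL1 and RAD50 share 70.2% and 79.7% of their exon bases with other genes on the same strand, so their low values of 0.962 ± 0.154 and 3.23 ± 0.441 CPM in DMSO are uncertain.

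Among 26 genes tied to ALT and to PML bodies, the nuclear structures where ALT telomeres gather, 7 rose and 4 fell, or 42.3% against 24.3% of all tested genes. Their median log2 fold change was 0.02. The shares compared here were not matched for expression level. EME1, a subunit of the MUS81 nuclease, rose from 19.4 ± 0.486 to 23.2 ± 0.633 CPM (0.26, edgeR adjusted p = 4.94e-05), and BLM, the Bloom syndrome helicase, from 44.7 ± 0.776 to 49.5 ± 1.07 CPM (0.15, adjusted p = 0.00121). The orphan nuclear receptor gene NR2C2 fell from 124 ± 2.42 to 112 ± 2.36 CPM (-0.15, edgeR adjusted p = 0.000175), and the zinc finger gene ZNF827 from 66.9 ± 0.267 to 61.6 ± 0.359 CPM (-0.12, adjusted p = 0.00242). Both of these proteins have been linked to ALT telomeres.

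The last list held 14 genes for H3.3, its chaperones and heterochromatin, where 3 rose and 3 fell, or 42.9% against 24.3% of all tested genes, at a median of -0.021. Again the shares were not matched for expression level. Both H3.3 genes, whose product ATRX and DAXX deposit, were among the lower ones. H3-3A fell from 233 ± 2.81 to 208 ± 6.25 CPM (edgeR log2 fold change -0.16, adjusted p = 5.92e-05), and H3-3B, named after its values were seen, from 680 ± 0.526 to 631 ± 8.85 CPM (-0.11, adjusted p = 0.000953). H3.3 genes have many near-identical copies in the genome, so the division of reads between them is uncertain. SETDB1, a histone H3 lysine methyltransferase, fell from 48.9 ± 1.03 to 43.6 ± 1.57 CPM (-0.16, edgeR adjusted p = 0.000708). CBX5, for heterochromatin protein HP1 alpha, rose from 274 ± 2.75 to 297 ± 5.8 CPM (0.11, edgeR adjusted p = 0.00118), as did SUV39H1, another H3 methyltransferase gene, from 50.7 ± 1.92 to 54.7 ± 0.74 CPM (0.11, adjusted p = 0.0149). HIRA, which deposits H3.3 outside telomeres, did not pass the threshold (adjusted p = 0.89), but 66.5% of its exon bases are shared with C22orf39 on the same strand, so its counts are uncertain.

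**Figure D5:**
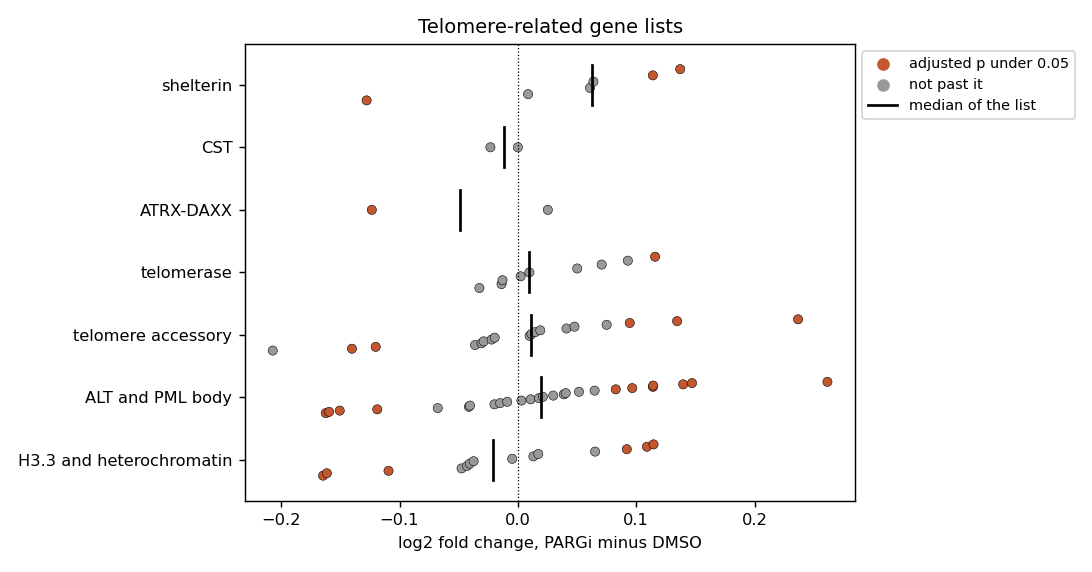
Log2 fold change of each tested gene of 7 telomere-related lists, PARGi minus DMSO; colour marks an edgeR adjusted p under 0.05 and the vertical bar the median of a list. Called genes lie on both sides of 0 in 4 of the 7 lists, and the value farthest from 0 is that of EME1, 0.26.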

How the data were processed

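The deposited values are raw whole-number read counts per gene, 1 column for each of the 6 libraries, and the authors did not normalise them. Per the submitters' processing notes, the tools included cutadapt 1.18, STAR 2.7.3a and SAMtools 1.9 with the build hg38; their settings, the annotation release, the strand column kept and the treatment of shared reads are not given in the sources used here. Per the labels' protocols the kit keeps strand. Of 333 genes lying inside the exons of a well-counted gene on the other strand, 306 had counts. The median of the 333 was 16 over 6 libraries, against 24139 for the enclosing genes. Such low counts could also arise if reads shared by 2 genes were left out, so the check cannot settle the strand. The counts were treated as stranded here.

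Identifiers were matched without version to a table of names and to GENCODE 29. Genes were tested in R 4.3.3 with edgeR 4.0.16: filterByExpr, then TMM, glmQLFit and glmQLFTest with treatment as the only term, in the 6 libraries together. P-values were adjusted by Benjamini-Hochberg over 20409 genes, with a threshold of 0.05. A standard error (SE) is the size of the log2 fold change over the square root of F. Single values were compared by exact permutation. The same scripts were tested on simulated data. Alternatives were DESeq2 1.42.0, limma-voom (limma 3.58.1), other scalings and filters, a GC and length offset (loess span 0.3), a replicate block and each library left out. No 2 libraries were duplicates. Figures used matplotlib 3.10.9.

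The 10 genes, the related lists and the count ratios were chosen with earlier results of these data known. Named were all 10 genes, TEN1, TERT and TERC, up to 2 higher and 2 lower called genes of smallest p per list, and the 3 genes most like the gene of smallest p. No molecular identifiers are recorded. The edgeR tests rest on counting error and on the spread between replicates, which is in part borrowed from other genes.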

Additional observations from a re-analysis of the deposited data

How the results depend on the processing

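TERF2IP and ATRX passed the threshold in all 15 alternative analyses, with log2 fold changes from 0.11 to 0.15 and from -0.15 to -0.11. TINF2 passed in 14 and ACD in 8, and TERF1, TERF2, POT1, DAXX, CTC1 and STN1 in none. ACD missed it with upper-quartile scaling (log2 fold change 0.0895, edgeR adjusted p = 0.104). It also missed it with DESeq2 (log2 fold change 0.1138, DESeq2 adjusted p = 0.0612). With a library left out, ACD ranged from 0.0897 to 0.1347, TINF2 from -0.1607 to -0.1003, TERF2 from -0.0264 to 0.0317, CTC1 from -0.0791 to 0.015 and STN1 from -0.05 to 0.0473, and the count of called genes among the 10 from 2 to 4. The fitted value of TERF2 was -0.0158 with upper-quartile scaling, and that of STN1, at 0, turned positive with no filter on low counts (0.0044), with the GC and length offset (0.0265) and with the block and that offset (0.0263).

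Upper-quartile scaling called 4947 genes, of which 40.5% were higher, against 54.5% of 4951 with TMM. Same-numbered libraries of the groups did not deviate together (r of -0.006, 0.016 and -0.008), so the numbers were not taken to pair them. With the replicate block 4553 genes were called, 4 of the 10 among them, and STN1 was at 0; no call among the 10 changed.

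Levels per kilobase moved most with the length. By the median coding transcript, which is short where many fragments are annotated, they were 123 for ATRX, 46.8 for TERF2, 43.8 for TERF2IP, 38.4 for TERF1, 33.9 for CTC1, 32 for DAXX, 27.3 for TINF2, 23.4 for POT1, 16.5 for ACD and 12 for STN1. By the longest coding transcript, a length added after the data were seen, they were 35 for TERF2IP, 29.5 for DAXX, 26.5 for ATRX, 20.9 for TINF2, 13.5 for TERF1, 13.4 for TERF2, 13 for ACD, 11.6 for STN1, 3.28 for POT1 and 2.73 for CTC1. Any order of levels that differs between these lengths is unsettled.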
